A study of Homo sapiens with 22 samples.

Results

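Open chromatin was mapped in melanoma cells sorted on EGFR and NGFR, a pair of surface receptors that mark cells primed to survive targeted therapy, and 840 regions carried a peak in every library of the sort labelled Mix and almost nowhere else. These Mix-only regions were chosen by their peak calls: the intervals of the 12 peak lists were merged wherever they shared at least 1 base, and a region was kept if all 3 Mix libraries and at most 1 of the other 9 libraries had a peak in it. They made up 0.364% of the 230774 merged regions and 0.876% of the 95906 regions with a peak in all 3 Mix libraries. The peak pattern is therefore the rule and not a result, and every peak height given below for the Mix libraries is a description without a test.

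The cells were WM989 A6-G3, a clone of a BRAF V600E melanoma line that had passed through single-cell bottlenecks, so all 12 chromatin libraries come from 1 clone. Untreated cells of the sorts Mix, EGFR-High, NGFR-High and EGFR-NGFR-High were assayed by OMNI-ATAC, an assay in which a transposase cuts accessible DNA, with 3 libraries a sort. The study's methods describe the fourth sort as negative for both markers, whereas the word mixed elsewhere in those methods means all live cells without selection on a marker, so the label Mix is used here. Single-cell RNA-seq covered untreated WM989 A6-G3, untreated WM983B E9-D5, which is a clone of another melanoma line, and WM989 cells of 4 groups: untreated Control, recombinant TGFB1, the PI3K inhibitor GDC-0941 (PI3Ki) and the TGFB receptor inhibitor LY2109761 (TGFBRi). In the paper, the untreated WM989 sample was grown from cells sorted high for EGFR and NGFR and from mixed cells. Its share of primed cells reflects that design. Each treatment group had 2 libraries, named r1 and r2 in the cell labels, and the study's own annotation called each cell drug-susceptible or primed. The sample labels name those 2 replicates Mix and Primed, and which of them is r1 was not settled.

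Melanocytes and most melanoma cells are held in a pigmented state by MITF, a basic helix-loop-helix factor that binds E-boxes such as CATGTG and CACGTG, and by SOX10, an HMG-box factor that binds letters such as ACAAAG. A longer E-box with a leading T, TCATGTG, is known as the M-box of pigment gene promoters. AP-1 factors (FOS and JUN proteins) bind TGANTCA, where N is any base, and are associated with the dedifferentiated, EGFR- and AXL-positive state that tolerates BRAF inhibition. Regions away from gene starts that are open in a single cell state are often enhancers, which act on genes at a distance.

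The Mix-only regions are numbered R1 to R840 by the lowest of their 3 Mix peak heights, and the height is the fold enrichment at the summit, which in these lists is the reads there plus 1 over the library's uniform background plus 1. The sequences below show what the letters of MITF and SOX factors look like in such regions, because the share of regions with these letters is compared with the marker-high sorts further on. Shown are the 4 of the 12 tallest regions that held the M-box, or both the SOX letters and an E-box, and R541, which was chosen after its values were seen because it lies in a gene that is itself far more abundant in drug-susceptible cells. Each run is 300 bases of the + strand of hg38 around the summit, which need not share the region's ends, with the SOX letters (ACAAAG, or CTTTGT on the other strand), the E-boxes (CATGTG or CACGTG, or CACATG) and the M-box in capitals. The run of R1 is chr15:84674839-84675138, in an intron and 16383 bp upstream of the start of its linked gene NMB, which encodes the peptide neuromedin B. The run of R3 is chr1:76409119-76409418 in an intron of the sialyltransferase gene ST6GALNAC3. The run of R4 is chr15:73659823-73660122, 24002 bp from the start of the immune checkpoint gene CD276. The run of R9 is chr2:185438079-185438378, in an intron and with FSIP2, a gene of the sperm tail sheath, as its nearest gene in the tables. The run of R541 is chr3:62958068-62958367 in an intron of the long noncoding RNA gene LINC00698.
R1: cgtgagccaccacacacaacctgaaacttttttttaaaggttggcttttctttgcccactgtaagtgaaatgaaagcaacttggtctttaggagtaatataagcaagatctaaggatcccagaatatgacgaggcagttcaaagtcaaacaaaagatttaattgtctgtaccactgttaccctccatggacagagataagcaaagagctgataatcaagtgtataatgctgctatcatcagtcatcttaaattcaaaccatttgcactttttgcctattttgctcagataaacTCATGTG
R3: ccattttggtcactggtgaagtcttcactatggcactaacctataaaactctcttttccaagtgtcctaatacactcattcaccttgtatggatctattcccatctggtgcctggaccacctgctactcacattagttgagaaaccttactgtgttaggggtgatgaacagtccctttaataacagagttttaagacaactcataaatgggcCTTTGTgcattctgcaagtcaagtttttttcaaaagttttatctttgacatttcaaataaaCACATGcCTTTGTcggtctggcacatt
R4: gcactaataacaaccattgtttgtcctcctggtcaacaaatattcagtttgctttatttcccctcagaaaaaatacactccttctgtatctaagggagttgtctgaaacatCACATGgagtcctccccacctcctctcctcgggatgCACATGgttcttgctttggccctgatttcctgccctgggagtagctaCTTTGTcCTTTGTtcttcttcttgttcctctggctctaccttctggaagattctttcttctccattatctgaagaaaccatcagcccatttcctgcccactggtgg
R9: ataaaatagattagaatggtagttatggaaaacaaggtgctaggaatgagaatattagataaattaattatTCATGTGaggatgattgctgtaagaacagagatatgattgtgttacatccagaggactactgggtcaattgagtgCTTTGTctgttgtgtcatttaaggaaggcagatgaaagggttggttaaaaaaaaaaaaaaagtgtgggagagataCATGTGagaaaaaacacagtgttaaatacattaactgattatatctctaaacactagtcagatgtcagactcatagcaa
R541: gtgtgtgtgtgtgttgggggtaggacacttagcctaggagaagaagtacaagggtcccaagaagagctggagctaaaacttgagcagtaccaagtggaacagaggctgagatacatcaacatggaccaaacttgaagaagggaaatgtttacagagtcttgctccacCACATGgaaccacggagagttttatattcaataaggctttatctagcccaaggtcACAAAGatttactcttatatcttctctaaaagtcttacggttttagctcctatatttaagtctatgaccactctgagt
The M-box of R1 lay in this window but beyond the called region, which ended at base 84675116. R3 and R4 carried 2 SOX matches each, and R4 and R9 carried 2 E-boxes each.

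The sort was visible at the genes used for it. At the start of EGFR the peaks had fold enrichments of 5.38, 4.24 and 5.81 in the Mix libraries and 14.5, 14.2 and 14.2 in the EGFR-High libraries. At the start of NGFR they were 13.4, 12.3 and 12.6 in Mix and 29.4, 22.7 and 22.1 in NGFR-High. The groups of libraries did not overlap at either gene, and the Mix libraries were the lower ones. AXL, a receptor tyrosine kinase of the primed state, had a peak at its start in NGFR-High 3 and EGFR-NGFR-High 1 and in no Mix library. The starts of SOX10, MITF, PMEL, MLANA, TYR and DCT, which define melanocytic cells, carried a peak in all 12 libraries. No Mix-only region lay within 100 kb of EGFR, NGFR, AXL, NT5E, SOX10 or MITF, and 1 lay that near to DCT.

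The Mix-only regions held small peaks. Their median fold enrichment was 4.93 in Mix 1, 4.71 in Mix 2 and 4.84 in Mix 3, with lowest values of 3.14, 2.83 and 2.90 and highest values of 10.3, 9.90 and 10.2. These medians stood at the 14.5th, 22.0th and 20.9th percentile of all intervals of the same library. Behind them were median pileups of 10, 9 and 9 reads, where the smallest pileup called in a Mix library was 5 or 6 reads. Across regions the median of the mean Mix fold enrichment was 4.85, against 12.8 for the other regions with a peak in all 3 Mix libraries. Small peaks were not particular to the Mix sort, since regions found by the same rule for EGFR-High (171 regions), NGFR-High (423) and EGFR-NGFR-High (1182) had medians of 4.63, 4.62 and 4.75. A library without a peak is one in which no interval passed the authors' threshold, and no value below it was used here.

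Mix-only regions lay at the low end of a continuous scale of sharing. Of the 840, 294 (35%) had no peak in any of the other 9 libraries and 546 had a peak in exactly 1. Just outside the rule were 769 regions with peaks in 2 other libraries, whose median Mix fold enrichment was 5.12, beside 4.98 for the 546 just inside and 4.78 for the 294. The numbers went on rising to 6091 regions shared with 8 other libraries and 78272 shared with all 9, and the last had a median of 16.2. The 1 other peak was in an EGFR-High library for 212 regions, in NGFR-High for 152 and in EGFR-NGFR-High for 182, and most often in EGFR-High 2 (104 regions). Its median fold enrichment was 4.37 (range 2.68 to 7.99). It was lower than all 3 Mix peaks in 229 of the 546 regions and higher than all 3 in 48.

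**Figure D1:**
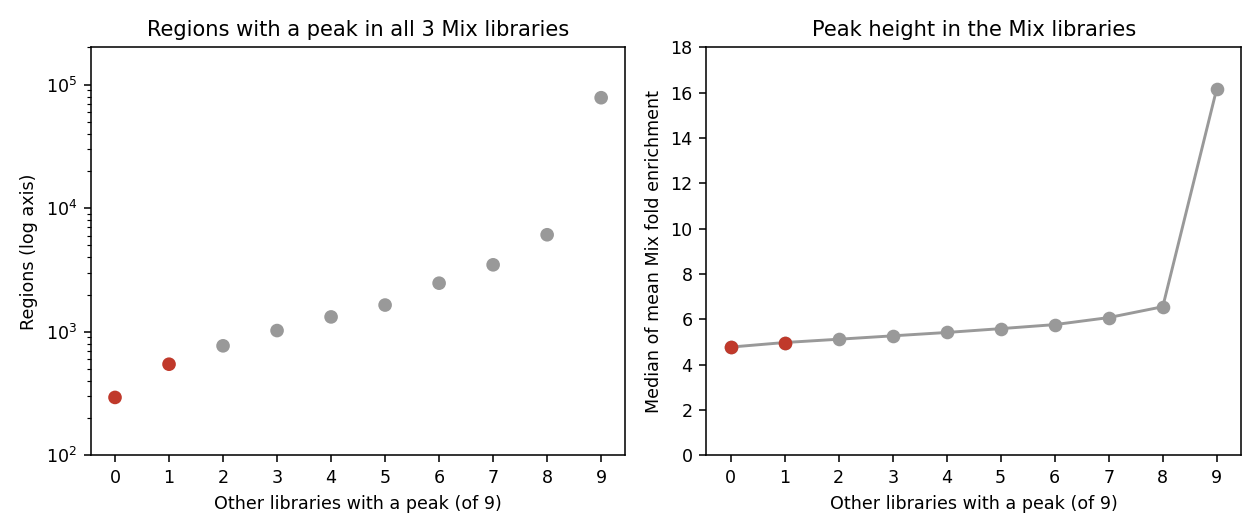
Regions with a peak in all 3 Mix libraries, by the number of the other 9 libraries that also have one (horizontal axes): the number of regions on a log axis (left) and the median of the mean Mix fold enrichment on a linear axis (right). Red points are the Mix-only regions, 294 and 546 of them with medians of 4.78 and 4.98, and the counts rise without a break to 78272 regions shared by all.

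The 12 regions with the highest lowest Mix peak are given one by one, and since they were picked for tall Mix peaks, a lower peak elsewhere is largely set by that choice. R1 near NMB had fold enrichments of 8.96, 8.01 and 7.26 in Mix 1, 2 and 3 and 3.98 in NGFR-High 1. R4 near CD276 had 6.72, 7.07 and 8.71 in Mix and 3.97 in EGFR-NGFR-High 3. R6, in an intron of SPOCK3, which encodes a proteoglycan, had 7.17, 9.90 and 6.29 in Mix and 3.97 in EGFR-NGFR-High 3. In each of these the 1 other peak was lower than every Mix peak. R3 in ST6GALNAC3 was the exception among the 12, with 7.62, 7.54 and 6.78 in Mix and 7.09 in EGFR-High 2, which fell inside the Mix range. R2 near LINC02290 came close, with 8.06, 7.07 and 7.26 in Mix and 6.62 in EGFR-High 2. R12, in an exon of PKHD1L1, had 5.82, 6.60 and 7.74 in Mix and no peak in another library.

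The other tall regions had Mix peaks between 5.82 and 8.48. R8 near KCNN2, which encodes a calcium-activated potassium channel, had 6.27, 8.48 and 6.29 in Mix and 4.46 in EGFR-NGFR-High 1. R9 in the sequences above had 6.27, 6.60 and 6.78 in Mix and 4.70 in NGFR-High 3. R5 in an intron of MS4A15, R7 in SWAP70, a guanine nucleotide exchange factor that binds actin, R10 near HMCES, which protects abasic sites in DNA, and R11 near IGKV3-20 had 1 other peak each, between 2.78 and 4.73. All 4 of these were below their Mix peaks. IGKV3-20 belongs to a family of near-identical immunoglobulin segments, so reads there are uncertain.

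**Figure D2:**
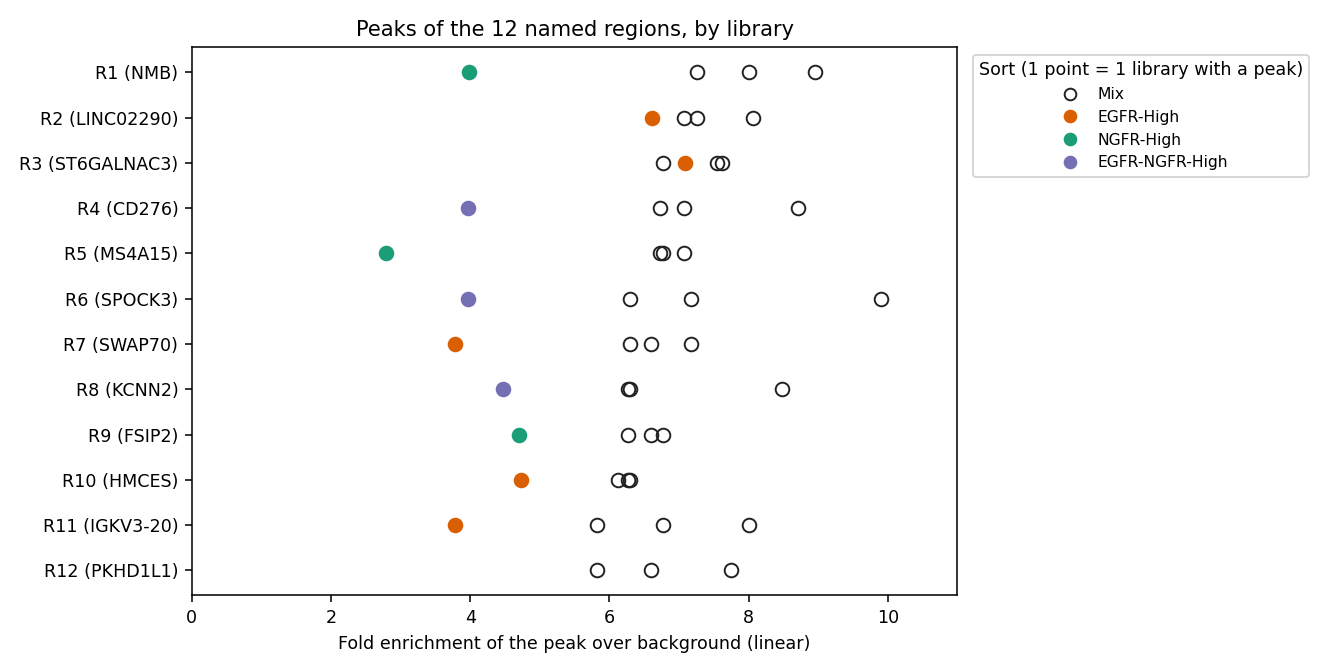
Fold enrichment over background (linear axis) in the 12 tallest Mix-only regions, 1 point for each library with a peak; open circles are the 3 Mix libraries and filled circles the 1 other library. The filled circle lies left of all open circles in every region that has one except R3, and R12 has none.

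Mix-only regions lay away from gene starts. Of the 840, 60 (7.14%, 95% exact interval 5.49 to 9.10) were within 1 kb of a transcription start, against 19.1% of the 152014 regions with a peak in at least 3 libraries. Introns held 481 (57.3%, against 48.0%), intergenic sequence 274 (32.6%, against 28.5%) and exons 21 (2.5%), and 4 lay on unplaced sequence. The median distance to the nearest start was 11227.5 bp, against 7354 bp. The 2663 regions with a peak in all 9 marker-high libraries and at most 1 Mix library were also mostly distal, with 9.73% within 1 kb of a start, a value a little above the upper end of the interval for the Mix-only regions. Regions of the same rule for EGFR-High, NGFR-High and EGFR-NGFR-High had 9.94%, 12.3% and 8.29% there. A distal position was therefore not particular to Mix. Intervals over regions cover counting error only, since regions of the same libraries are not replicates. The regions were scattered: 58 of 840 lay within 100 kb of another one, and the chromosome with the most, chromosome 2, held 89 of them (10.6%, against 8.75% of regions in at least 3 libraries).

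The letters of the pigment cell factors were frequent in Mix-only regions and those of AP-1 were not. In windows reaching 150 bases to each side of the summit, 37.1% of 836 Mix-only regions (95% exact interval 33.8 to 40.5) held ACAAAG on either strand, against 28.0% of 151844 regions in at least 3 libraries and 22.7% of the regions open in all 9 marker-high libraries. The regions found by the same rule for the other sorts are the most like these in height: ACAAAG was in 21.6% of EGFR-High-only, 29.3% of NGFR-High-only (25.02 to 33.9, which overlaps the Mix-only interval) and 22.8% of EGFR-NGFR-High-only windows. An MITF E-box (CATGTG or CACGTG, either strand) was in 36.0% of them (32.7 to 39.4), against 25.6% and 23.8%, and in 24.6%, 26.2% and 25.02% of the windows of those 3 sorts. The M-box TCATGTG, which is part of those E-box matches, was in 11.2%, against 6.85% and 4.99% of the regions in at least 3 and in all 9 marker-high libraries. For all 3 sets of letters the share was highest in the Mix-only regions.

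TGANTCA gave the opposite order. It was in 14.8% of Mix-only windows (12.5 to 17.4), in 21.5% of windows from regions in at least 3 libraries, in 44.5% of those open in all 9 marker-high libraries and in 53.0% of EGFR-NGFR-High-only windows. The EGFR-High-only and NGFR-High-only windows, at 11.7% and 17.3%, were near the Mix-only share, so a low AP-1 share was not particular to Mix. SOX letters and an E-box stood together in 109 Mix-only windows (13.0%), against 7.03% and 4.66%. At least 1 of them stood in 502 (60.05%), against 46.6% and 41.9%. AP-1 letters with neither of them were in 6.70% of Mix-only windows and in 26.0% of the marker-high windows.

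**Figure D3:**
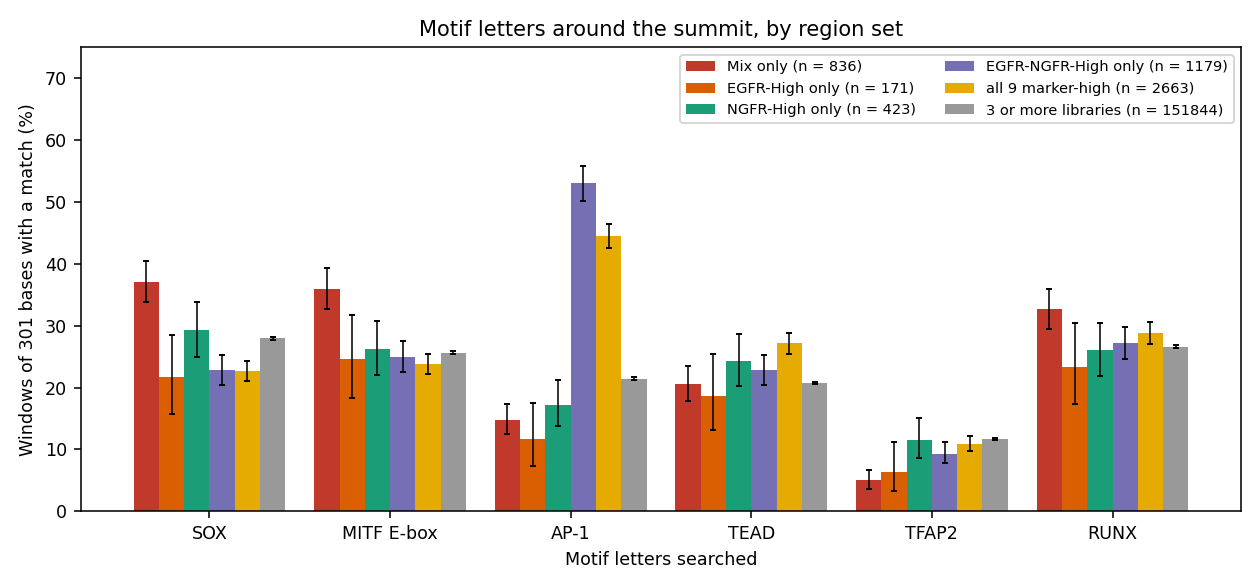
Share of windows of 150 bases to each side of the summit (%, linear axis from 0) that hold each set of letters on either strand, for Mix-only regions and 5 other sets of regions; error bars are 95% exact binomial intervals over regions and cover counting error only. The red Mix-only bars are the tallest for SOX (37.1%), the MITF E-box (36.0%) and RUNX (32.7%) and the shortest for TFAP2 (5.02%). The AP-1 bars reach 53.0% and 44.5% in the EGFR-NGFR-High-only and marker-high sets and 14.8% in Mix-only.

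The remaining letters gave no single order. TGTGGT, the core bound by RUNX factors, was in 32.7% of Mix-only windows against 26.6% of those in at least 3 libraries. It was in 23.4%, 26.0% and 27.2% of EGFR-High-only, NGFR-High-only and EGFR-NGFR-High-only windows and in 28.8% of the marker-high windows. A share highest in Mix-only regions was thus not confined to the SOX and E-box letters. GCCNNNGGC, bound by TFAP2 factors, was in 5.02% against 11.7%, and CCGGAA, bound by ETS factors, in 3.11% against 5.82%. For GCCNNNGGC the EGFR-High-only, NGFR-High-only, EGFR-NGFR-High-only and marker-high shares were 6.43%, 11.6%, 9.33% and 10.9%, all above the Mix-only share. GGAATG, bound by TEAD factors, was in 20.6% against 20.7%, CAGCTG, another E-box, in 19.5% against 17.6%, and TTGGC, part of the NFI site, in 40.7% against 44.7%. Median GC content was 43.5% against 45.2%. The part of base composition in these shares was not tested.

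The SOX and E-box letters were also concentrated at the summits. Within 60 bp of the Mix-only summits there were 4.05 SOX matches for each 100 regions and 20 bp, against 1.93 in the flanks from 140 to 240 bp, a ratio of 2.101. E-boxes had 3.73 against 1.70, a ratio of 2.19. The same ratios were 1.61 and 1.52 in the regions in at least 3 libraries and 1.05 and 1.26 in the regions open in all 9 marker-high libraries. Counted another way the contrast was smaller: 45.1% of the SOX matches in Mix-only windows lay within 50 bases of the summit, against 42.9% and 39.2% in those sets. For E-box matches it was 41.9%, against 40.1% and 38.4%. In the regions of the same rule for EGFR-High, NGFR-High and EGFR-NGFR-High, the SOX shares were 29.5%, 38.0% and 37.7%. Their E-box shares were 41.7%, 39.6% and 35.9%. AP-1 letters had a ratio of 2.23 in Mix-only regions (1.34 against 0.598), of 3.91 in regions in at least 3 libraries and of 7.77 in the marker-high regions. The height of the Mix peaks was much the same with and without the letters: the median was 4.96 in the 310 windows with SOX letters and 4.84 in the 526 without, and 4.83 and 4.95 with and without an E-box. A match of letters is a description of the sequence and does not show that a factor was bound.

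**Figure D4:**
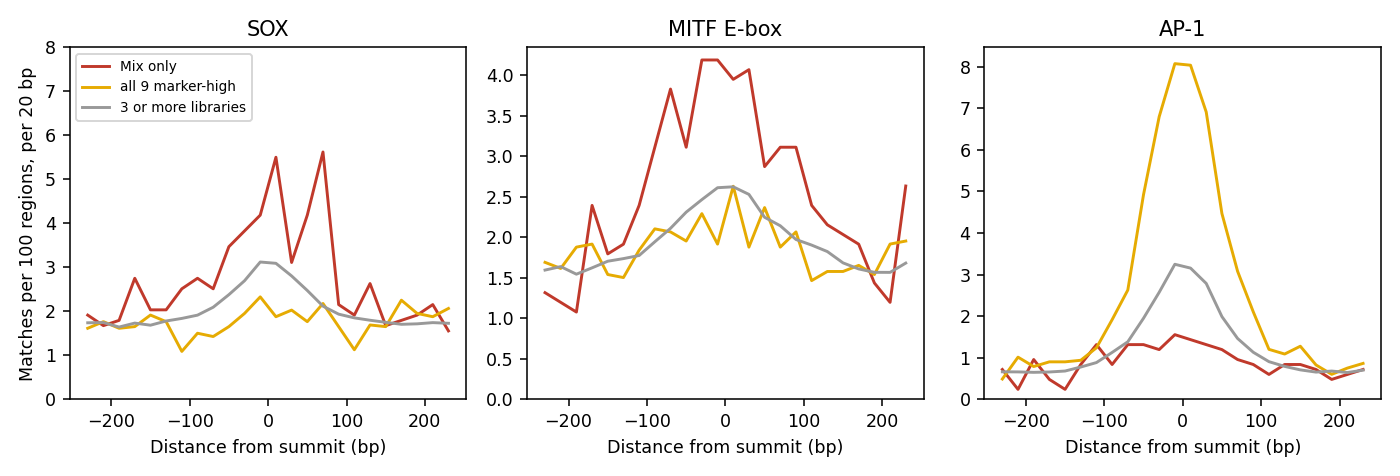
Matches for each 100 regions in bins of 20 bp (vertical axes, linear, with a different range for each panel) by distance from the summit in bp, for SOX letters (left), the MITF E-box (middle) and AP-1 letters (right). Around the summits the Mix-only line (red) exceeds its flanks 2.101 and 2.19 times in the first panels, while the line of the regions open in all 9 marker-high libraries (yellow) stands out for AP-1, at 7.77 times its flanks.

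The genes near Mix-only regions were next read in the cells' RNA. A region could be linked to any of the 23301 genes matched by symbol to those counted in the treatment experiment. The link went to the gene among them whose 5′ end was nearest, within 100 kb. It gave 541 genes for 554 regions, while 286 regions had no such gene. Starts of other transcripts or of unmatched genes could lie nearer. R1, for example, was 1120 bp from an annotated start and 16383 bp from that of NMB. Of the 541, 206 (38.1%) were under 1 CPM (counts scaled to the same total for every group of cells) in both states of untreated WM989 cells, against 44.2% of all genes, and 44 had no count at all. The most regions linked to 1 gene were 2, at LINC01767, AREL1, OVAAL, ANXA4, EDC3, LINC00698, FANCL, AVIL, TRIM25 and TIMP3 among those named by the rule.

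As a group, the linked genes had a median ratio near that of all genes, and its sign depended on the processing. The untreated WM989 sample held 9688 drug-susceptible cells with 558501146 UMIs and 2843 primed cells with 192161692. Its wells differed in make-up. In r1, well 2 held 1059 primed and 639 drug-susceptible cells, and well 4 held 263 and 3578. In r2, well 6 held 447 and 134, and well 7 held 196 and 1941. State and well are thus partly confounded in these ratios. Over the 222 linked genes at 10 CPM or more, the log2 ratio of drug-susceptible to primed CPM had a median of 0.03 (quartiles -0.36 and 0.42), against -0.02 over all 8311 genes at that level. The median was -0.026 at 1 CPM or more (all genes -0.066), -0.023 with links by gene body and 0.17 for the genes of regions with no peak in the other 9 libraries. At least 2-fold higher in drug-susceptible cells were 18 of them (8.11%), where 6.28% of all genes were, and at least 2-fold higher in primed cells were 22 (9.91%), where 10.6% of all genes were. The genes linked to regions open in all 9 marker-high libraries had a median of -0.25, and 171 of 669 (25.6%) were at least 2-fold higher in primed cells. In WM983B E9-D5 (718 drug-susceptible and 731 primed cells) the median over 226 linked genes was -0.01, against -0.03, and 2 genes (0.885%) passed 2-fold in each direction, where 0.671% and 1.44% of all genes did. Within WM989 the median was 0.08 in r1 (all genes 0.00) and 0.04 in r2 (all genes 0.02). No test of these ratios was made: each line is 1 GEO sample, with r1 and r2 as cell labels inside that of WM989, and the states were called from the same counts.

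The nearer regions showed no clearer direction. Taken by region, so that a gene with 2 regions counts for each, the median log2 ratio was -0.60 for the 5 regions within 1 kb of a gene at 10 CPM or more, 0.17 for 55 at 1 to 10 kb, -0.11 for 48 at 10 to 25 kb and 0.08 for 123 at 25 to 100 kb. In all, 12 genes had a Mix-only region within 1 kb of their 5′ end, and among them FBLN5, which encodes an elastic fibre protein, stood at 2.46 CPM in drug-susceptible and 0.26 in primed cells. GBP2, an interferon-induced GTPase with region R104 at 290 bp, stood the other way at 1.83 and 31.4 CPM. The long noncoding RNA NORAD, at 45.5 and 69.2 CPM, differed by less than 2-fold. MYL6B, at 124 and 250 CPM, overlaps MYL6, and the division of their reads is uncertain.

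Among single genes, the widest ratio towards the drug-susceptible state was that of DCT, the pigment enzyme dopachrome tautomerase. It stood at 517 CPM in drug-susceptible and 19.2 CPM in primed WM989 cells, 26.8-fold apart, with log2 ratios of 4.26 in r1 and 5.33 in r2. In WM983B the same states had 423 and 87.1 CPM. Its region, R680 (chr13:94432297-94432621), lay 47223 bp from the start between genes, with fold enrichments of 3.58, 3.77 and 4.36 in Mix and 3.31 in EGFR-NGFR-High 2, and its window held neither SOX letters nor an E-box. DCT itself carried a far taller peak at its start in every sort, with means of 64.3 ± 0.45 in Mix, 50.3 ± 9.07 in EGFR-High, 61.4 ± 12.2 in NGFR-High and 54.1 ± 2.18 in EGFR-NGFR-High (SD, n = 3 each). The Mix mean was also the highest at the starts of SOX10, MITF and TYR. It was the lowest at PMEL (143 against 150, 173 and 186) and at MLANA (8.73 against 11.5, 11.6 and 9.34).

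Other genes on that side had lower levels. CYP7B1, an oxysterol hydroxylase, stood at 29.6 and 1.65 CPM in drug-susceptible and primed cells. NHSL1, a regulator of lamellipodia, stood at 27.7 and 6.39 CPM. MYH10, the nonmuscle myosin heavy chain IIB, stood at 287 and 73.9 CPM. LDLRAD3 (24.3 and 6.15), the cytokinesis kinase gene CIT (81.8 and 30.3), the glycine enzyme gene GCAT (50.8 and 19.2) and ELFN1-AS1 (21.8 and 5.36) made up the 8 named by the rule. ELFN1-AS1 is an antisense gene, and whether the counting used strand is not given in the sources used here. LINC00698, which holds both R541, shown above, and R52, stood at 19.0 and 1.54 CPM with a log2 ratio of 3.54. KCNN2, near the tall region R8, stood at 6.66 and 0.52 CPM. In all 10 of these genes the ratio had the same direction in r1 and r2. For the 8 named by the rule, this was a condition of the choice.

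Genes of the primed state also lay near Mix-only regions. VEGFA, the vascular endothelial growth factor, stood at 10.4 CPM in drug-susceptible and 255 CPM in primed cells, 24.4-fold apart. Its region R286 (chr6:43801840-43802175), 31823 bp from the start, had fold enrichments of 6.27, 5.18 and 4.36 in Mix and 3.58 in NGFR-High 1. R104 (chr1:89149975-89150358) at GBP2 had 8.06, 5.18 and 4.84 in Mix and 3.78 in EGFR-NGFR-High 2. At both genes the chromatin peak was called in the Mix cells while the RNA was higher in primed cells.

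The RNA was also higher in primed cells for TIMP3, a metalloproteinase inhibitor with the regions R64 and R591, at 278 and 1936 CPM. IRS1, the insulin receptor substrate that couples receptors to PI3K, stood at 3.92 and 53.9 CPM. MICAL2, a monooxygenase acting on actin, stood at 1.51 and 21.7 CPM. The complement protease gene C1R (4.71 and 49.8), the small GTPase gene GEM (4.97 and 31.5) and the ubiquitin ligase gene TRIM8 (16.9 and 90.3) complete the 8 at this end. The 8 genes at each end were picked by their ratios, which are therefore a description of these cells. In WM983B the ratio was much smaller for VEGFA, at 20.1 and 42.2 CPM.

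TGFB1, a secreted ligand that signals through SMAD factors, changed linked genes in both directions, and which direction held more of them depended on the libraries. The share of primed cells was 2.26% and 4.47% in the Control libraries r1 and r2 and 29.1% and 31.3% with TGFB1. Of 370 linked genes tested, 80 (21.6%) fell, where 12.7% of all 18389 genes did, and 63 (17.0%) rose, where 16.3% did; among the 14780 tested genes that could be linked, 14.2% fell and 18.1% rose (edgeR quasi-likelihood test with the replicate as a block, adjusted p under 0.05). The median log2 fold change was -0.04, against 0.01 over all genes. Without Control r1, 52 (13.6%) rose and 41 (10.8%) fell, where 11.2% and 7.55% of all genes did. Without Control r2 it was 51 (13.4%) and 44 (11.5%), where 11.1% and 7.38% did, and without TGFB1 r1 51 (13.5%) and 37 (9.76%), where 10.4% and 6.28% did. Without TGFB1 r2 it was 57 (15.1%) each, where 13.1% and 8.93% did, and without the replicate block 50 (13.5%) and 42 (11.4%), where 11.8% and 7.82% did. More linked genes fell than rose with all libraries and the block, but in none of these 5 alternatives, while the share that fell was above that of all genes in each. Other settings with all libraries and the block kept more fallen than risen. With DESeq2, 68 (18.4%) fell and 44 (11.9%) rose, where 9.58% and 11.5% of all genes did. Without the filter on low counts, 77 (15.5%) of 496 fell and 66 (13.3%) rose, where 7.86% and 10.4% did. Links by gene body gave 94 (24.9%) fallen and 71 (18.8%) risen of 377. Of 1147 genes linked to the regions open in all 9 marker-high libraries, 346 (30.2%) rose and 174 (15.2%) fell. Counts here are sums over all cells of a library, so that a larger number of primed cells and more RNA in each cell cannot be told apart.

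Genes high in drug-susceptible cells mostly fell and genes high in primed cells mostly rose. Of the 18 linked genes at least 2-fold higher in drug-susceptible cells, 15 (83.3%) fell with TGFB1 and 0 rose. Among all such genes 352 of 522 (67.4%) fell and 38 (7.28%) rose. Of the 22 higher in primed cells, 15 (68.2%) rose and 2 (9.09%) fell. Among all such genes 642 of 879 (73.0%) rose and 47 (5.35%) fell. In the paper the state of a treated cell was called after treatment, by clusters of the same counts that held the primed markers. A cell in which primed genes rose could thus be called primed and leave the drug-susceptible group. This limits every value given below for drug-susceptible cells alone. When only cells called drug-susceptible were summed, 7 of the 18 (38.9%) fell and 1 (5.56%) rose, where 35.8% of all such genes fell and 13.2% rose, and 3 of 21 (14.3%) rose and 3 (14.3%) fell, where 36.3% of all such genes rose and 7.67% fell. Over all linked genes that sum left 33 (9.09%) risen and 34 (9.37%) fallen of 363, where 8.56% and 6.32% of all genes were.

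MICAL2, MSC and UACA rose most with TGFB1 among the named genes. MICAL2 stood at 2.84 and 2.69 CPM in Control and 11.3 and 12.3 with TGFB1, a log2 fold change of 2.09 ± 0.1 (SE, adjusted p = 2.77e-13). MSC, a basic helix-loop-helix repressor with region R631 at 4170 bp, went from 8.42 and 7.99 to 28.7 and 24.7 CPM (1.70 ± 0.0832, adjusted p = 4.25e-13). UACA, an apoptosome-associated protein, went from 57.8 and 61.6 to 175 and 163 CPM (1.501 ± 0.0715, adjusted p = 2.72e-13). In all of these both treated libraries were above both controls. MSC and UACA were picked by size of change among called genes rising in both replicates, which largely sets that. Within drug-susceptible cells MSC still rose (0.79, adjusted p = 3.19e-07), while UACA (0.05, adjusted p = 0.746) and MICAL2 (0.08, adjusted p = 0.747) did not pass the threshold.

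VEGFA went from 14.8 and 16.5 to 27.2 and 38.6 CPM with TGFB1 (1.06 ± 0.0793, adjusted p = 4.99e-10), and within drug-susceptible cells its log2 fold change was -0.06 (adjusted p = 0.706). SPHK1, the sphingosine kinase, went from 20.2 and 18.6 to 30.9 and 28.0 CPM (0.60 ± 0.0774, adjusted p = 2.27e-06, and 0.20 with adjusted p = 0.108 within drug-susceptible cells). IRS1 rose from 3.53 and 4.44 to 9.76 and 9.68 CPM (1.30 ± 0.11, adjusted p = 3.79e-09), also within drug-susceptible cells (0.87, adjusted p = 1.20e-05). TIMP3, although far higher in primed cells, did not pass the threshold, at 428 and 413 CPM in Control and 389 and 355 with TGFB1 (-0.18 ± 0.0674, adjusted p = 0.0522).

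DCT fell the most among the named genes. It stood at 385 and 384 CPM in Control and 199 and 207 with TGFB1 (-0.92 ± 0.0687, adjusted p = 4.57e-10), and it fell within drug-susceptible cells as well (-0.56, adjusted p = 2.10e-06). ACVR1C, which encodes the receptor ALK7 of the TGFB family, went from 21.4 and 20.6 to 10.6 and 11.6 CPM (-0.91 ± 0.0749, adjusted p = 2.23e-09). KCNN2 went from 13.0 and 17.3 to 5.85 and 11.3 CPM (-0.85 ± 0.0963, adjusted p = 3.38e-07), a call lost without the replicate block (-0.82, adjusted p = 0.0546). GLCCI1 went from 21.4 and 20.4 to 11.6 and 11.6 CPM (-0.85 ± 0.0718, adjusted p = 3.76e-09). Treated and control libraries did not overlap in any of these 4, which picking called genes with large falls in both replicates largely sets. All 4 also fell within drug-susceptible cells. LINC00698 fell by 0.61 on the log2 scale (adjusted p = 1.19e-06), whereas NMB and CD276, the genes linked to R1 and R4, did not pass the threshold, with log2 fold changes of 0.13 and 0.00 (adjusted p = 0.176 and 0.973).

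**Figure D5:**
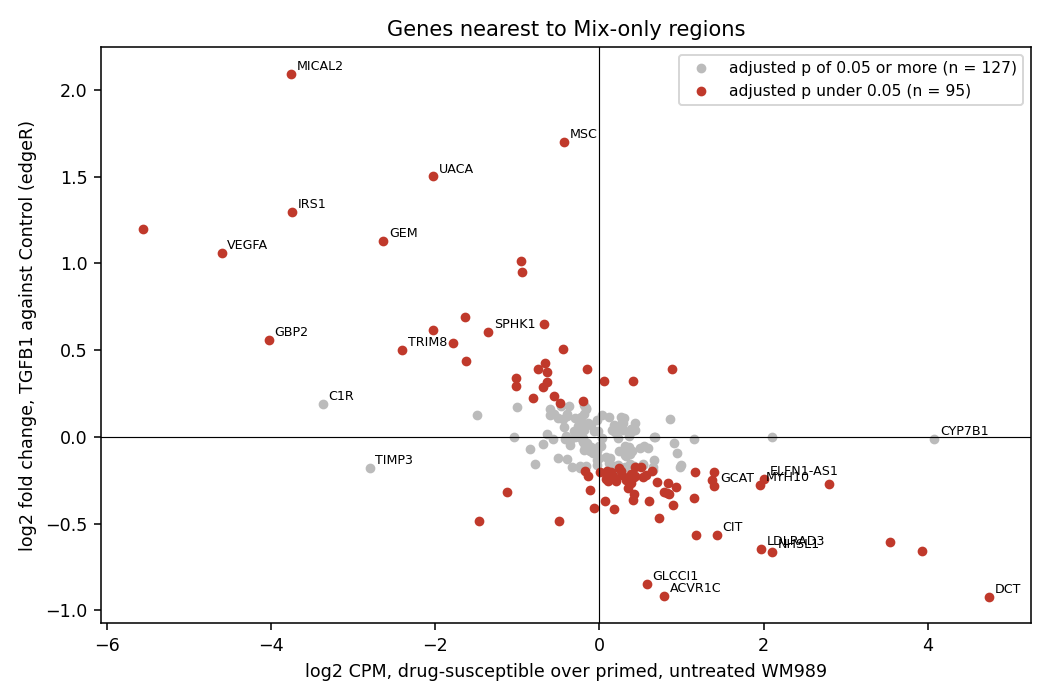
The 222 linked genes at 10 CPM or more in either state: log2 ratio of drug-susceptible to primed CPM in untreated WM989 cells (horizontal) against the log2 fold change with TGFB1 (vertical), red where the adjusted p was under 0.05 (95 genes). Of the 182 plotted genes within 2-fold between the states, 9.89% rose and 24.7% fell, where 12.4% and 16.4% of all such genes did. The shares for the 18 and 22 genes beyond 2-fold are given in the text. DCT lies at the lower right and VEGFA, IRS1 and MICAL2 at the upper left, while most genes lie near the origin.

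PI3K inhibition moved fewer linked genes. Primed cells made up 0.647% and 1.21% of the PI3Ki libraries. Of the 370 linked genes, 27 (7.30%) rose, where 5.83% of all genes did, and 33 (8.92%) fell, where 6.83% did, with a median of -0.01. Without Control r2 or PI3Ki r2, 7 rose in each case (1.84% and 1.85%), where 1.67% and 1.36% of all genes did, and 20 and 16 fell (5.25% and 4.23%), where 2.94% and 2.41% did. Without Control r1 or PI3Ki r1, 14 rose in each case (3.67%), where 2.87% and 2.55% of all genes did, and 21 and 18 fell (5.51% and 4.72%), where 3.95% and 3.05% did. Of the 22 linked genes higher in primed cells 11 fell and 0 rose, and of the 18 higher in drug-susceptible cells 3 (16.7%) rose and 2 (11.1%) fell. Among all genes 35.8% of those higher in primed cells fell and 4.89% rose. Of those higher in drug-susceptible cells 23.8% rose and 10.5% fell. All treatments share the same 2 Control libraries, so their values are not independent of each other.

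VEGFA fell most, from 14.8 and 16.5 CPM in Control to 6.19 and 7.02 with PI3Ki (-1.25 ± 0.088, adjusted p = 1.99e-09), and did so within drug-susceptible cells too (-1.02, adjusted p = 1.42e-08). DCT, although a drug-susceptible gene, also fell, to 247 and 275 CPM (-0.56 ± 0.0683, adjusted p = 6.94e-06). LINC01291 fell from 27.4 and 26.3 to 14.4 and 16.4 CPM (-0.81, adjusted p = 1.66e-06). CD109, a co-receptor that binds TGFB1, fell from 77.3 and 78.6 to 52.7 and 56.2 CPM (-0.52, adjusted p = 1.32e-05). For DCT, therefore, TGFB1 and PI3Ki went the same way although the share of primed cells was higher than in Control with the first and lower with the second.

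CYP7B1 rose most with PI3Ki, from 38.6 and 30.0 to 71.5 and 53.1 CPM (0.86 ± 0.0658, adjusted p = 7.28e-09). ELFN1-AS1 rose from 25.6 and 22.4 to 34.0 and 32.9 CPM (0.48, adjusted p = 0.000488). LHFPL3-AS1, another antisense gene, rose from 267 and 270 to 346 and 389 CPM (0.45, adjusted p = 0.000236). RPS21 rose by 0.36 (adjusted p = 0.0133), its many pseudogenes make its counts uncertain, and the call was lost without Control r2 (adjusted p = 0.457) or PI3Ki r2 (adjusted p = 0.287). In each of these both PI3Ki libraries were above both controls, which picking called genes with rises in both replicates largely sets.

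The receptor inhibitor moved the fewest. Primed cells made up 2.26% and 4.32% of the TGFBRi libraries, close to Control. Of the 370 linked genes 3 (0.811%) rose, where 1.09% of all genes did, and 11 (2.97%) fell, where 1.45% did. MYO10, the myosin of filopodia, fell from 491 and 526 to 375 and 394 CPM (-0.40 ± 0.0713, adjusted p = 0.0019). TIMP3 fell from 428 and 413 to 340 and 325 CPM (-0.34 ± 0.0675, adjusted p = 0.00583). CPQ (-0.29, adjusted p = 0.042) and DCBLD2 (-0.28, adjusted p = 0.0165) also fell, and NQO1, a quinone reductase, rose by 0.30 (adjusted p = 0.0115). None of these 5 calls held without Control r1, and the count of called genes was then 1 risen (0.262%) and 5 fallen (1.31%), where 0.529% and 0.964% of all genes were. It was 1 (0.262%) and 7 (1.84%) without Control r2, where 0.320% and 0.561% of all genes were, and 6 (1.59%) and 21 (5.56%) without TGFBRi r1, where 2.98% and 3.04% were. Without Control r1 the log2 fold changes of the named genes were -0.37 for MYO10, -0.37 for TIMP3, -0.21 for CPQ, -0.26 for DCBLD2 and 0.30 for NQO1. DCT had a log2 fold change of -0.22 that did not pass (adjusted p = 0.0999).

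Genes of the pathways in play were linked to Mix-only regions in ones or not at all, with the PI3K pathway as the exception, and with so few the shares cannot be set apart from the 2.32% of all genes that were linked. Of 28 melanocyte identity and pigment genes 1 was linked (DCT), of 21 neural crest factors 1 (TFAP2B, under 1 CPM), of 29 primed state markers 1 (VEGFA), of 39 TGF-beta pathway genes 1 (SMAD2), of 33 Wnt pathway genes 1 (DKK2, under 1 CPM) and of 32 PI3K pathway genes 2 (IRS1 and RHEB, the GTPase that activates mTORC1). None of 28 ERK pathway and feedback genes, 14 AP-1 factors, 17 YAP and TEAD genes or 25 cell cycle genes was linked. SMAD2, the signal transducer of TGFB receptors, stood at 41.2 and 40.6 CPM in Control and 37.1 and 41.5 with TGFB1 and did not pass (adjusted p = 0.582). RHEB fell by 0.22 with TGFB1 (adjusted p = 0.0147), and within drug-susceptible cells its log2 fold change was -0.13 (adjusted p = 0.245).

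The lists of both states moved with TGFB1 and PI3Ki, linked or not. They were chosen with earlier results of these data known. The counts are sums over all cells, and the share of primed cells was higher with TGFB1 and lower with PI3Ki. A sum over all cells does not separate the part of that share from changes within cells, and this part was not tested for these lists. Of 27 melanocyte genes tested, 15 (55.6%) fell and 2 rose with TGFB1, where 12.7% of all genes fell, and 9 (33.3%) rose and 2 fell with PI3Ki, where 5.83% of all genes rose. Of 28 primed state markers, 23 (82.1%) rose and 2 fell with TGFB1, where 16.3% of all genes rose, and 0 rose and 20 (71.4%) fell with PI3Ki, where 6.83% fell. With TGFBRi, where 1.09% of all genes rose and 1.45% fell, 3 (10.7%) of the 28 rose and 2 (7.14%) fell, and 3 (8.33%) of 36 TGF-beta pathway genes rose and 9 (25%) fell. Beside the 16.3% of all genes that rose with TGFB1 and the 12.7% that fell, 22 (61.1%) of 36 TGF-beta pathway genes rose and 4 (11.1%) fell, and 8 (57.1%) of 14 AP-1 factors rose and 1 (7.14%) fell. The PI3K pathway had 6 (19.4%) risen and 8 (25.8%) fallen of 31, and the cell cycle 4 (16.7%) and 6 (25%) of 24. DCT was thus 1 of the 2 melanocyte genes that fell with PI3Ki.

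None of the 8 fibroblast, 8 keratinocyte, 8 leukocyte and 8 endothelial markers was linked to a Mix-only region. Of 6 fibroblast markers tested 4 rose with TGFB1, where 16.3% of all genes did, and the list's summed level was 31.6 and 32.9 CPM in Control and 83.6 and 85.0 with TGFB1. The endothelial list went from 0.820 and 0.823 to 4.103 and 3.43 CPM, with 2 of 3 tested markers risen. The leukocyte list stayed between 0.76 and 1.11 CPM in these libraries, with 1 of 3 risen, and 1 of 1 keratinocyte marker tested rose, the list's sum being 69.7 and 79.4 CPM in Control and 93.0 and 93.3 with TGFB1. With PI3Ki 4 of the 6 fibroblast markers fell, where 6.83% of all genes did, the list's sum being 21.5 and 21.2 CPM. In untreated WM989 the fibroblast genes COL1A1 and PDGFRA stood at 1.69 and 0.734 CPM in drug-susceptible cells and 160 and 47.3 CPM in primed cells. PECAM1, an endothelial gene, stood at 0.183 and 22.8 CPM in these states. COL3A1, KRT5, KRT14, PTPRC, CD14 and CDH5 were under 1 CPM in both. The part of these markers in the results for TGFB1 and PI3Ki was not tested.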

How the data were processed

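The 12 chromatin libraries, the untreated single-cell samples and the 8 treatment libraries were grouped by their labels. The members and the 14 gene lists were chosen with earlier results of these data known. Reads were aligned to hg38 with Bowtie2 2.3.4.1 and handled with SAMtools 1.1, and peaks were called per library with MACS2 2.1.1.20160309, per the submitters' processing notes. The authors' peak lists give for each summit a fold enrichment (a ratio) and −log10 p and q values. In every library 100% of the deposited fold values were, within a small rounding limit, whole multiples of 1 / (background + 1). A value is then (reads + 1) / (background + 1), with 1 constant background per library. Peaks at several summits of an interval were reduced to the highest one. The deposited single-cell matrices hold UMI counts made with Cell Ranger, with cells filtered by the authors, who also gave each cell's state. No doublet caller was run. Strand use in the counting, and the Cell Ranger version, are not given in the sources used here. Barcodes shared between libraries were 19 of 12512 in the untreated and 194 of 39827 in the treatment experiment.

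Merging used 1 base of overlap. Positions came from the GENCODE v44 annotation of hg38, all regions ending within its chromosome lengths. Of the genes in the count tables, 22465 of 33538 and 23301 of 36601 matched it by symbol, including 18723 of 19970 protein-coding genes (93.8%). Intervals for shares are exact (Clopper-Pearson, 95%) and cover counting error only. Counts were summed over all cells of a library (70239657 to 122420544 UMIs, 40021 cells in all) and tested with edgeR 4.0.16 (R 4.3.3) by the two-sided quasi-likelihood test with TMM scaling (factors 0.941 to 1.05), treatment and replicate as terms, and Benjamini-Hochberg adjustment over 18389 genes. DESeq2 1.42.0 was an alternative. The scripts were tested on simulated counts. The replicate pairs the samples: deviations of r2 from r1 correlated between every pair of treatments (0.256 to 0.365), and the cells of a well were split over the 4 plates. The 2 libraries of a group come from separate wells of 1 clone, and the replicate term takes out the difference between those wells. The p-values therefore rest on the spread that remains after it. Log2 ratios between states used CPM + 0.1.

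Named were the 12 regions with the highest lowest Mix fold enrichment, the 10 genes with most regions, the 8 genes at each end of the state ratio with at least 20 CPM, up to 4 genes in each direction and treatment with at least 10 CPM, linked genes on the lists, and EGFR, NGFR, AXL, NT5E, SOX10 and MITF. The genes named for a region within 1 kb of their 5′ end were picked after their values were seen. Genes named by state ratio or by treatment also had to go the same way in r1 and r2. Those named by treatment also had to pass the adjusted p threshold of 0.05. Alternatives were other peak thresholds, patterns, merging, windows, links, filters, tools and left-out libraries.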

Additional observations from a re-analysis of the deposited data

How the results depend on the processing

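The rule and the peak threshold set which regions were found. There were 294 with no peak in the other 9 libraries and 1609 with at most 2, and 932 to 4100 when libraries were left out in turn (4100, 2911 and 3324 without replicate 1, 2 or 3 of every sort). The 50000 highest-ranked intervals of each library gave 648 regions, none of them among the 840, and a −log10 q of at least 5 gave 751, of which 95 (11.3% of the 840) were. The median Mix fold enrichment was then 16.3, and it was 6.25 with that q threshold, 4.98 with at most 2 other libraries, 4.97 with 250 bases each side of the summit and 4.55 to 4.98 with libraries left out. The share within 1 kb of a start was 10.6%, 9.45% and 9.59% under the ranked, q and 250-base settings, 5.24% with protein-coding starts only and 7.30% to 11.6% with libraries left out. In windows of 50 bases to each side of the summit the SOX, E-box and AP-1 letters were in 18.2%, 16.0% and 6.22%, against 12.8%, 11.03% and 12.5% of regions in at least 3 libraries. The median WM989 log2 ratio was -0.026 at 1 CPM or more (all genes -0.066), -0.023 by gene body, 0.17 for regions with no other peak and 0.084 within r1, so its sign is not settled. No paired analysis was run for the chromatin results, since the peak pattern is the rule and was not tested.

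With TGFB1, 33 linked genes rose and 34 fell in drug-susceptible cells only (8.56% and 6.32% of all genes), 23 (12.9%) and 39 (21.9%) of 178 with links within 25 kb, and 21 (15.9%) and 34 (25.8%) of 132 for regions with no other peak, where 16.3% and 12.7% of all genes did. Leaving out 1 library in turn left 37 to 57 fallen and 51 to 57 risen, never more fallen than risen. With PI3Ki the links within 25 kb gave 13 and 13 of 178 (7.30% each), regions with no other peak 14 and 14 of 132 (10.6% each, where 5.83% and 6.83% of all genes were called), and left-out libraries 7 to 14 risen and 16 to 21 fallen. With TGFBRi, links within 25 kb gave 0 risen (8 at an unadjusted edgeR p under 0.05) and 6 fallen of 178 (3.37%), links by gene body 6 risen of 377 (1.59%), regions with no other peak 5 fallen of 132 (3.79%), where 1.09% and 1.45% of all genes were called, no filter 5 and 17 of 496 (1.008% and 3.43%, all genes 1.18% and 1.35%), and left-out libraries 1 to 6 and 5 to 21. VEGFA with TGFB1 turned to -0.059 in drug-susceptible cells only. Of 189 alternatives for named genes 166 kept the call and 22 kept the direction but lost significance. The 1 other, this one of VEGFA, reversed and did not pass the threshold either.

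Without the replicate block, 50 linked genes rose and 42 fell with TGFB1 (11.8% and 7.82% of all genes), so more rose than fell, 6 and 17 with PI3Ki (1.42% and 2.11%), and 0 (9 at an unadjusted edgeR p under 0.05) and 2 with TGFBRi (0.0598% and 0.158%). KCNN2 (TGFB1), RPS21 (PI3Ki) and NQO1, MYO10, TIMP3, CPQ and DCBLD2 (TGFBRi) lost their calls without it. All of the 92, 23 and 2 genes called without the block were among the 143, 60 and 14 called with it. A median of 9 or 10 reads stood behind each Mix-only peak, and the effect of depth was not varied.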
